A study of Drosophila melanogaster with 36 samples.

Results

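Lines A1 and A2 of Drosophila melanogaster were selected in opposite directions for wing shape from 1 hybrid population, called A, and are compared here through the RNA of their larval wing discs. A1 is the high line and A2 the low line. Members were chosen by the array titles, which gave 3 arrays of A1 and 3 of A2 among 36 arrays of 12 lines. Population A was made by crossing the Massachusetts founder lines H and L, which had been selected apart for 20 generations and then made isogenic. The hybrids were left to mix for 34 generations, selected apart for 25 and inbred for 10, so A1 and A2 are each a single inbred line. Lines B1 and B2, C1 and C2, and D1 and D2 have the same history in the hybrid populations B, C and D. All flies were kept at 20 °C, and discs were taken 6.2 h before pupariation. Each tube held 100 discs, and 5 µg of total RNA was labelled for an Affymetrix array, which reports 1 signal per probe set. The question was what differs between A1 and A2, and which of those differences pairs B, C and D do not share.

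The wing disc is the sheet of epithelium that grows in the larva and folds out into the adult wing and notum. Patterning signals such as Hedgehog, Dpp, Wingless, Notch and EGFR place the veins and set growth, so that the shape of the wing is largely laid down at this stage. A hybrid line that is selected and then inbred holds a patchwork of founder chromosomes. At any stretch of chromosome, the high and the low line may hold the same founder's copy or different ones.

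Array medians ran from 251.2 to 266.6 in A1 and from 243.2 to 273.1 in A2, against 243.2 to 433.5 over all 36 arrays. Each A1 array correlated with its own line at 0.985 to 0.986 on average and each A2 array at 0.979 to 0.982, above its mean correlation with the other lines. The 8 tested genes of the wing disc marker list included vestigial, nubbin and apterous. By the brightest probe set of each gene, the lowest of the 8 in pair A was rn, at 988.2 in A2 replicate 3. Their summed signal was 85249 to 89781 in A1 and 76577 to 82732 in A2, and 0 of the 8 were called between the lines. Whether the 3 arrays of each line come from different cultures is not stated in the labels, and p-values therefore measure only the spread between these arrays, which may be technical. In the titles the A1 arrays carry lower numbers than the A2 arrays, so that order and selection direction cannot be told apart. The founder arrays carry numbers 2525 to 2530 and the reselected arrays 2467 to 2490. Array medians were 369.0 to 433.5 in H and 314.5 to 359.3 in L. Level differences between founder and reselected arrays thus cannot be told apart from title number and array median.

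Of 9385 probe sets tested, 1476 (15.7%) were called between A1 and A2 at a Benjamini-Hochberg adjusted p below 0.05 in limma, a linear model fitted to the log2 signals of all 36 arrays. They split into 728 higher in A1 (7.76%) and 748 lower (7.97%). Differences are given as log2 of A1 over A2, so that 1 unit is a 2-fold difference, with the standard error (SE) of the model. The median size among called probe sets was 0.45, the smallest was 0.13, and 231 reached 2-fold, 45 reached 4-fold and 19 reached 8-fold. The same test called 1189 probe sets in pair B (12.7%), 1329 in pair C (14.2%) and 943 in pair D (10.0%). The arrays of A1 and A2 did not overlap at 3036 probe sets (32.3%). When array medians were set equal, 729 probe sets were called in pair A.

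The largest differences of pair A were often shared with other pairs. Of the 24 named genes with the highest and lowest differences, 12 were called in the same direction in all of pairs B, C and D, and 7 departed from the mean difference of those pairs, namely Arc1, BCAS2, Cpr51A, Cpr72Ea, CG31436, CG10809 and Pgant2. CG32017 averaged 4594.7 ± 117.0 in A1 and 267.0 ± 22.9 in A2 (SD, n = 3 each), a difference of 4.11, and it was also called higher in B1, C1 and D1. The ionotropic receptor gene Ir76a was higher in A1 by 3.39, and msl-3, which encodes a subunit of the male dosage compensation complex, by 1.93. On the low side stood the cytochrome P450 gene Cyp6a17, whose difference was -4.74, and CG12589, whose difference was -3.23. All 5 of these genes were called in the same direction in pairs B, C and D, and for none of the 5 did the difference between pair A and the mean of the other pairs pass the test. Pgant2, which encodes an enzyme that starts O-linked glycosylation, had 199.7, 189.2 and 246.5 in A1, against 1061.6, 924.7 and 1271.6 in A2. Its difference of -2.36 differed from the mean of the other pairs by -1.64 (adjusted p = 2.88e-05), with 0.18 in pair B, -1.86 in pair C and -0.46 in pair D.

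Over all 1476 called probe sets, 497 were called in the same direction in pair B (33.7% of pair A's calls and 41.8% of pair B's), 428 in pair C (29.0% and 32.2%) and 466 in pair D (31.6% and 49.4%). Called in the opposite direction were 32 in pair B, 51 in pair C and 33 in pair D.

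A group of 644 probe sets (43.6% of the calls) was called in pair A and in none of pairs B, C and D. That count alone does not show a difference between pairs. Of the 644, 180 (28.0%) had a pair A difference that departed from the mean difference of the 3 other pairs when this departure was itself tested, and 464 did not. Over all tested probe sets, 523 (5.57%) departed from that mean, 257 upward (2.74%) and 266 downward (2.83%). That count was 284 without A2 replicate 3 and 192 with equal array medians. A stricter requirement was a call in pair A together with a difference from each of pairs B, C and D, tested one by one and in the direction of the A1 difference. It was met by 46 probe sets (0.49%), which are called particular to pair A below. Of these, 25 were higher in A1 (0.266%) and 21 lower (0.224%). They represent 38 named genes, and 7 of the 46 had no single symbol. With equal array medians the requirement was met by 15 probe sets, all among the 46. Leaving out 1 array at a time gave 35 to 64. Of the 46, 12 met it in every alternative computed for them, among them Arc1, CG31436, CG12883, CG6330, CG14683, CG5727, CG2812, CG3663 and CG33978. The same requirement was met by 56 probe sets for pair B, 73 for pair C and 24 for pair D.

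Of the 46, 20 were not called in pairs B, C or D, 24 were called in the opposite direction in at least 1 of them, and 3 were called in the same direction in at least 1. Differences were larger than in the rest of the calls, with a median size of 0.67 against 0.44 for the other called probe sets. The requirement selects for size, so this is a description only. Of the 46, 10 reached 2-fold and 4 reached 4-fold.

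Arc1 showed the highest difference of a named gene particular to pair A. It encodes a protein related to retrotransposon Gag, which in Drosophila assembles into capsids that carry its own mRNA at synapses. Its signal was 12498.8, 14477.1 and 13304.6 in the A1 arrays, against 2629.9, 2543.8 and 2451.6 in the A2 arrays. All A1 arrays lay far above all A2 arrays, with little spread in either line. The difference was 2.40 (SE 0.19, limma adjusted p = 1.01e-10), and it exceeded the mean of pairs B, C and D by 2.64 (SE 0.22, adjusted p = 1.36e-09). In the other pairs the difference was -0.43 in B, -0.98 in C and 0.69 in D. That in B was not called. Pair C was called in the opposite direction (adjusted p = 0.000524) and pair D in the same direction (adjusted p = 0.0182). Against pair D, pair A thus differed in size. By this probe set A1 was the line that stood apart. It exceeded the mean of B1, C1 and D1 by 2.22 (adjusted p = 2.69e-11), whereas A2 differed from the mean of B2, C2 and D2 by -0.42, which did not pass the test (adjusted p = 0.106). Among the founders, H had 13307.1, 15066.8 and 10160.9, a span that holds the A1 arrays, and L had 3503.9, 4072.0 and 4719.3. A second probe set for Arc1 had a difference of 2.06 in pair A and was also particular to it, though not without A1 replicate 2. By that probe set A2 stood apart as well, differing from the mean of the other low lines by -1.09 (adjusted p = 0.00399).

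CG31436 showed the largest fall. Its signal was 52.7, 156.3 and 85.3 in A1, against 2049.1, 1763.6 and 1430.5 in A2. The lowest A2 array lay far above the highest A1 array. The difference was -4.28 (SE 0.41, adjusted p = 3.62e-09), against 0.68 in pair B, 3.15 in pair C and -1.09 in pair D, and it differed from the mean of those pairs by -5.20 (SE 0.48, adjusted p = 5.72e-09). The founder difference ran the other way, with 1569.2, 1418.7 and 1395.3 in H and 238.3, 171.8 and 197.1 in L. Both lines of pair A stood apart, with A1 differing from the mean of the other high lines by -3.10 and A2 from the mean of the other low lines by 2.09. In line D1 the arrays disagreed, with 1331.5 in replicate 1 and 300.9 and 313.1 in replicates 2 and 3. Without D1 replicate 1, CG31436 was still particular to pair A.

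A probe set with no gene symbol, 1641538_at, was opposite in pair A to all 3 other pairs and to the founders. It is named here after its values were seen. It had 1597.9, 1624.9 and 1610.2 in A1, against 39.5, 103.1 and 11.9 in A2, a difference of 5.47 (SE 0.45, adjusted p = 1.6e-10). The difference was -2.69 in pair B, -5.93 in pair C, -5.12 in pair D and -3.77 between H and L. It was the only one of the 46 called in the opposite direction in all 3 pairs.

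**Figure D1:**
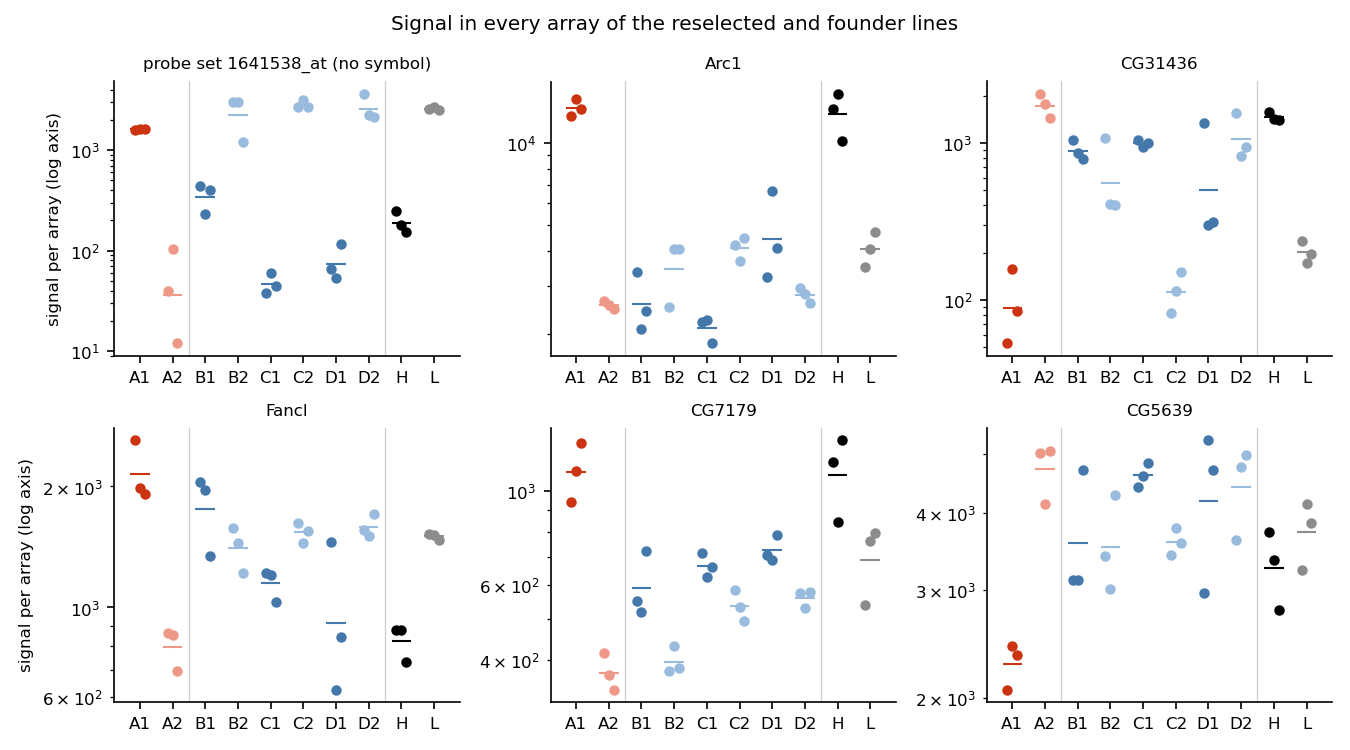
Signal in each array (points, log axis) with the mean of log values (bar) for 6 probe sets, by line: A1 and A2, then the high and low lines of pairs B, C and D, then founders H and L. For Arc1 the A1 arrays lie with H, and for CG31436 the A1 arrays lie near those of C2 and L while A2 lies with H.

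Further genes particular to pair A were higher in A1. Fancl, the E3 ubiquitin ligase of the Fanconi anaemia DNA repair pathway, had 2602.9, 1981.7 and 1913.4 in A1, against 862.3, 852.9 and 693.3 in A2. Its difference was 1.42 (SE 0.20, adjusted p = 2.86e-06), compared with 0.32 in pair B, -0.42 in pair C and -0.79 in pair D. CG12883 had 1550.3, 1819.3 and 1378.8 in A1, against 757.6, 717.6 and 644.2 in A2, a difference of 1.16 (SE 0.21, adjusted p = 0.000115). It was called lower in B1 and C1, with differences of -0.62 and -0.94. CG6330 had 1357.4, 1464.2 and 1440.9 in A1, against 666.2, 630.3 and 549.8 in A2, a difference of 1.21 (SE 0.14, adjusted p = 9.83e-08). For these 3 genes the arrays of A1 and A2 did not overlap, which held for all 46 probe sets particular to pair A. The requirement favours this, so it adds no support. Fancl met the requirement in 25 of 31 alternatives. It was not met with equal array medians, with quantile normalization or with only the 24 arrays of the reselected lines. Nor was it met without A1 replicate 1, A2 replicate 3 or B1 replicate 3. At Fancl, D1 replicate 1 lay at 1454.7 and D1 replicates 2 and 3 at 623.5 and 846.8.

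CG7179 rose by 1.56 (adjusted p = 2.41e-07), and here pairs B, C and D had differences of 0.57, 0.31 and 0.37 in the same direction, so that pair A differed in size. It met the requirement in 21 of 31 alternatives, and not under either other scaling. Aasdh, which encodes an aminoadipate-semialdehyde dehydrogenase, rose by 0.77 with 1908.1 ± 113 in A1 and 1117.3 ± 78.0 in A2 (SD, n = 3 each). CG12868 rose by 0.85, CG1648 by 0.71 and CG15784 by 0.89. CG10559 rose by 0.63 at an adjusted p of 0.0486, and it was particular to pair A in only 7 of 31 alternatives. Outside the naming rule, and so named after their values were seen, 7 more genes were higher in A1. They were Trf at 0.97, Arp10 at 0.63, CG12237 at 0.58, CG17652 at 0.57, the origin recognition gene Orc4 at 0.51, Irbp18 at 0.45 and CG12880 at 0.41. The mitochondrial ribosomal protein gene mRpS22 rose by 0.38. Trf, CG17652, mRpS22 and Orc4 met the requirement in 13, 8, 15 and 19 alternatives, and none of them under either other scaling. Of all genes named in this paragraph, only CG15784 met it with equal array medians. CG15784 met it in 26 of 31 alternatives.

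Among the genes lower in A1, CG5639 had 2064.1, 2430.1 and 2354.8 in A1, against 5014.1, 4148.9 and 5057.4 in A2, a difference of -1.05 (SE 0.17, adjusted p = 2.85e-05). The difference was 0.02 in pair B, 0.36 in pair C and -0.08 in pair D. CG5639 was no longer particular to pair A without D1 replicate 2. CG5727 had 2848.2, 2830.9 and 2998.6 in A1, against 5399.6, 5490.8 and 6491.0 in A2, a difference of -1.0 (SE 0.12, adjusted p = 5.36e-07). CG2663 had a difference of -1.02. twz had a difference of -0.97, from 1815.6 ± 307 in A1 and 3555.5 ± 657 in A2 (SD, n = 3 each). twz met the requirement in 20 of 32 alternatives, and neither twz nor CG2663 met it with equal array medians. In all 4 of these genes the A1 arrays lay below every A2 array, and a lack of overlap held for all 46 probe sets particular to pair A.

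Smaller falls were found for 4 further named genes. wun2, a lipid phosphate phosphatase gene known from germ cell migration, had a difference of -0.41, and CG15743 of -0.35. Neither met the requirement without A2 replicate 3. CG8192 had a difference of -0.69 and met it in 16 of 31 alternatives. Formaldehyde dehydrogenase, Fdh, had 17913.7, 18274.5 and 16909.4 in A1, against 27455.3, 28290.2 and 26654.9 in A2, a difference of -0.63 (SE 0.07, adjusted p = 9.75e-08). Outside the naming rule, and again named after their values were seen, 6 more genes were lower in A1. LManII, an alpha-mannosidase gene, had a difference of -0.95 and CG34159 of -0.64. LManII was also called lower in B1 (-0.43) and D1 (-0.35), so that against these pairs pair A differed in size. The gene of the chromatin remodeller Kismet, kis, had a difference of -0.58 and TrpRS, a tryptophanyl-tRNA synthetase gene, of -0.50. For TrpRS only 1 of 3 tested probe sets was particular to pair A. The gene dome, which encodes the receptor of the JAK/STAT pathway, had a difference of -0.42, against -0.04, 0.01 and 0.01 in pairs B, C and D. Dhc64C, the cytoplasmic dynein heavy chain gene, had a difference of -0.32. Without A2 replicate 3, kis, CG34159 and Dhc64C did not meet the requirement. CG34159 met it in 21 of 32 alternatives and Dhc64C in 20 of 32. With equal array medians no gene named in this paragraph met it, including Fdh, LManII, TrpRS and dome.

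**Figure D2:**
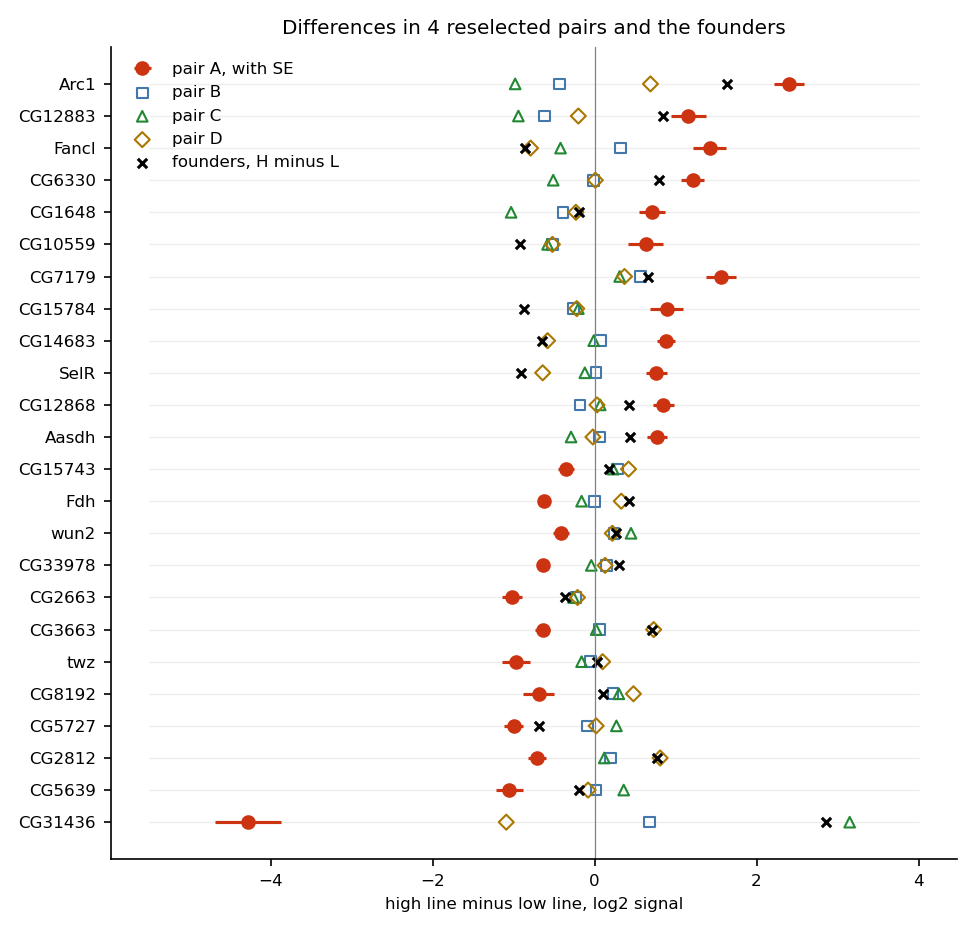
Difference between the high and the low line on the log2 scale for the 24 named genes with the highest and lowest departures of pair A from pairs B, C and D. Filled points with bars are pair A and its SE, open symbols are pairs B, C and D, and crosses are H minus L. CG31436, at -4.28 in pair A, is at 3.15 in pair C.

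For SelR and CG33978, 1 probe set was particular to pair A and the other was not called. SelR, a methionine sulfoxide reductase gene, had a difference of 0.76 by 1 probe set, with 7152.9, 7247.5 and 7413.3 in A1 and 4744.0, 4234.7 and 3923.2 in A2. Its second probe set had a difference of 0.27, which was not called. By the first, SelR was not particular to pair A with equal array medians, without A2 replicate 3 or without B2 replicate 3. At SelR too, D1 replicate 1 lay at 6624.7 and replicates 2 and 3 at 3748.9 and 4190.5. CG33978, on chromosome 4, had a difference of -0.64 by 1 probe set and of 0.15, not called, by the other.

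The 46 probe sets were also split by which line of pair A stood apart from its counterparts. A1 departed from the mean of B1, C1 and D1 at 998 probe sets (10.6%), 471 upward (5.02%) and 527 downward (5.62%). A2 departed from the mean of B2, C2 and D2 at 690 (7.35%), 280 upward (2.98%) and 410 downward (4.37%). The corresponding counts were 646 for B1, 1440 for C1 and 566 for D1, and 579 for B2, 175 for C2 and 270 for D2. These counts moved with single arrays. A2 stood apart at 190 without A2 replicate 3, and A1 at 588 without A1 replicate 2. With equal array medians they were 1524 for A1 and 1922 for A2, and the median departure over all probe sets was then 0.18 for each line. Of the 46, A1 alone stood apart at 16 (34.8%), A2 alone at 10 (21.7%), both at 20 (43.5%) and neither at 0. Arc1, CG5639 and CG2663 belong to the first kind, and Fdh, SelR, wun2 and dome to the second. The departure of pair A from the mean of the other pairs equals the A1 departure less the A2 departure. The choice of the 46 therefore favours a departure in A1 or A2, and their shares are a description only.

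**Figure D3:**
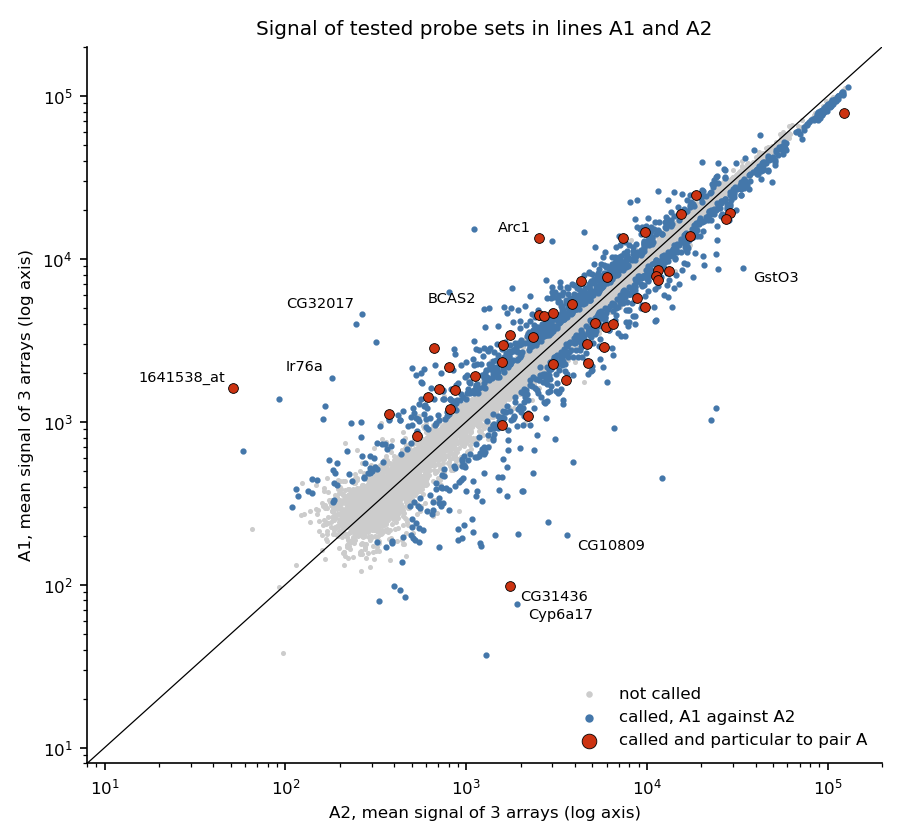
Mean signal of each tested probe set in A1 (vertical) against A2 (horizontal), both on log axes, with the line of equality. Grey points were not called, blue points were called between A1 and A2, and red points are the 46 particular to pair A, which include Arc1 above the line and CG31436 below it.

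The founders were set beside these genes, since population A was made from H and L. Likeness in level to a founder is a description only, since title numbers and array medians differ as given above. Over all probe sets, 2106 (22.4%) were called between H and L, 1019 higher in H (10.9%) and 1087 lower (11.6%). At 15 of the 46 (32.6%) H and L were called in the direction of A1 and A2, at 14 (30.4%) in the opposite direction, and at 17 (37.0%) they were not called. Of the other probe sets called in pair A, 738 (51.6%) had the founder direction, 38 (2.66%) the opposite one, and 654 (45.7%) were not called between the founders. The 46 were chosen for departing from pairs that share these founders, so no test was made of the 2 distributions. CG14683 had 13441.4, 14033.2 and 13124.5 in A1, against 7109.6, 6870.0 and 8196.2 in A2. Founder H had 6889.9, 7164.2 and 6480.7 and L had 10429.7, 10686.0 and 11126.3, so the A2 arrays lay near H. In D1, replicate 1 had 10443.4 and replicates 2 and 3 had 6136.9 and 7027.7. For CG2812 the A1 arrays lay near L. CG2812 had 3908.2, 4178.5 and 3808.8 in A1 and 7199.9, 6076.0 and 6196.8 in A2, with 6290.4, 6720.5 and 6334.3 in H and 3277.0, 4262.3 and 3852.7 in L.

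Position along the chromosomes was described by counting, with 1 probe set per gene, the brightest of those tested. Of 7222 genes, 1144 (15.8%) were called in pair A and 37 (0.512%) were particular to it. CG33978, on chromosome 4, is not among the 37, since its brighter probe set was not called. The called share was 20.7% on 2L, 15.3% on 2R, 19.3% on 3L, 13.8% on 3R, 11.6% on chromosome 4 and 10.5% on X. The 37 were 8 of 1292 tested genes on 2L (0.619%), 9 of 1435 on 2R (0.627%), 2 of 1445 on 3L (0.138%), 13 of 1767 on 3R (0.736%), 0 of 43 on chromosome 4 and 5 of 1211 on X (0.413%). The spread over arms was not tested. No 2 of them were direct neighbours among the tested genes. Of 639 genes called both in pair A and between the founders, 604 had the same sign and 35 (5.48%) the opposite one. The 35 were 1 on 2L, 9 on 2R, 1 on 3L, 14 on 3R, 0 on chromosome 4 and 10 on X, against 149, 98, 176, 122, 4 and 55 with the same sign. Along the arms, 144 stretches of up to 50 neighbouring genes were laid end to end. Of these, 125 held no opposite-sign gene and 4 held 3 or more.

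The stretches below are described after their values were seen, with no test. In the first, on 3R from grass to Nep7, 13 of 50 genes were called in pair A, and all 13 departed from the mean of pairs B, C and D. Of the same 50 genes, 10 were called in pair B, 9 in pair C and 0 in pair D. The 10 that were also called between the founders had the founder direction. The strongest was BCAS2, a spliceosome component gene, with 4867.7, 4606.8 and 5311.1 in A1 and 1074.0, 1309.4 and 1389.8 in A2, a difference of 1.98 (SE 0.28, adjusted p = 3.8e-06). Beside it stood Boh1 at 1.19, the spindle orientation gene pins at -1.20 and Sce, a Polycomb group E3 ligase gene, at -0.90. CG12877 had a difference of -0.96. At BCAS2 replicate 1 of both D lines stood above the other 2 replicates, with 4090.7 in D1 and 4122.2 in D2. BCAS2 exceeded the mean of the other pairs by 2.25 (adjusted p = 2.09e-05), and its difference from pair D alone had an adjusted p of 0.0514.

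The second stretch, on 3R from Cyp12e1 to CG31388, ran against the founders. Of its 50 genes, 12 were called in pair A, 0 in pair B, 2 in pair C and 8 in pair D, and 9 of the 12 departed from the mean of the other pairs. Of the 7 that were also called between H and L, 6 had the opposite sign. Ugt302K1, a UDP-glycosyltransferase gene, had a difference of 1.77 in pair A (adjusted p = 0.00474), against -2.45 in pair D and -3.0 between H and L. In D1, whose arrays disagreed at several genes here, Ugt302K1 averaged 3591.2 ± 4640 (SD, n = 3). CG6574 had a difference of -0.88 in pair A, 0.87 in pair D and 1.19 between the founders. CG14683, SelR and Fdh lie in the same stretch. The third, at the end of 2R from spz6 to CG30428, had 9 of 35 genes called in pair A, 0 in pair B, 2 in pair C and 10 in pair D. Of the 9, 8 departed from the mean of the other pairs and 5 were opposite in sign to the founders. Those 5 were GstE12, CG2811, Tina-1, Phk-3 and emp, whose differences in pair A ran from -0.33 to 0.29.

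**Figure D4:**
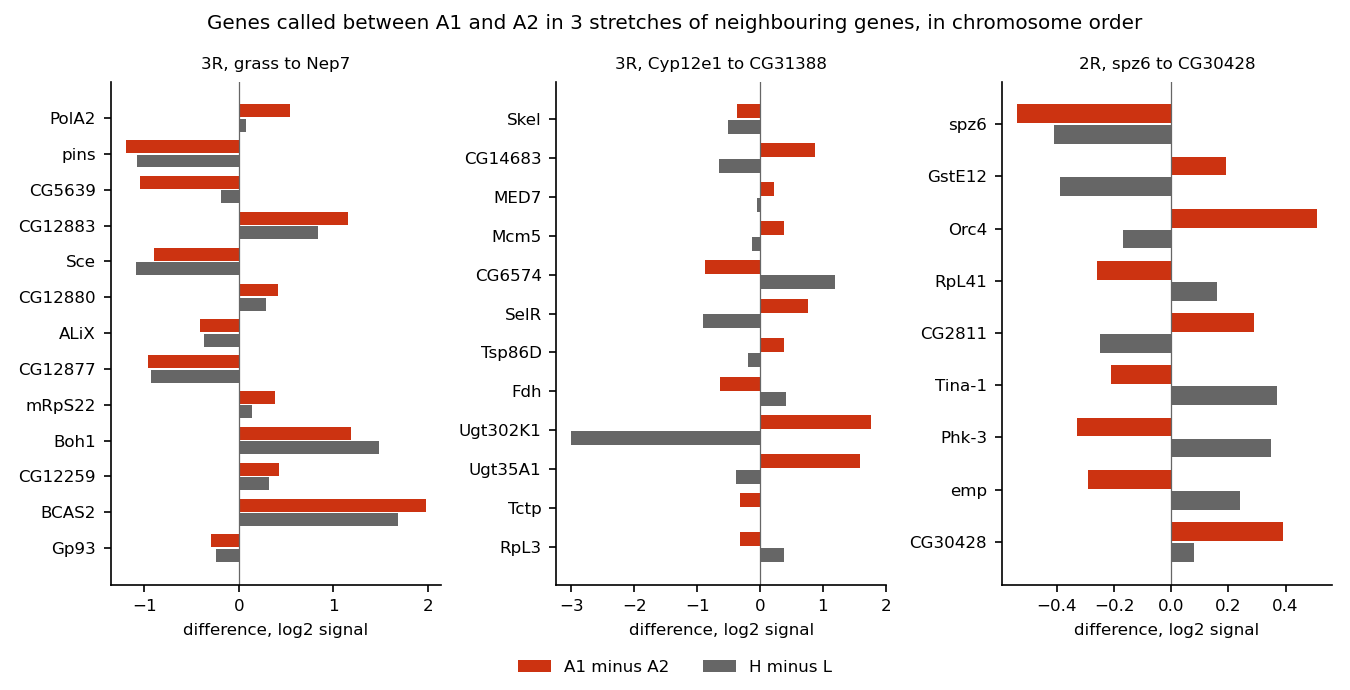
Differences on the log2 scale for the genes called between A1 and A2 in 3 stretches of neighbouring genes, in order along the arm. Red bars are A1 minus A2 and grey bars are H minus L, which share a direction in the left panel for the founder-called genes and mostly oppose each other in the other panels, with Ugt302K1 at 1.77 and -3.0.

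Gene groups of the wing disc were counted next. The lists were chosen with earlier results of these data known, and each count is read against 8.06% of all genes called higher and 7.78% called lower. The shift of all genes between A1 and A2 was 0.02. Over all probe sets, calls higher and lower in the high line were 6.3% and 6.37% in pair B, 6.8% and 7.36% in pair C, and 4.98% and 5.07% in pair D. None of the 41 lists was tested as a set.

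Of 28 cell cycle and DNA replication genes tested, 12 rose in A1, 0 fell, and 16 did not pass, with a median difference of 0.24. Mis12, a kinetochore gene, had 1661.0, 1856.7 and 1649.7 in A1, against 496.3, 712.3 and 509.1 in A2, a difference of 1.61. Map205, a microtubule-associated protein gene, rose by 1.40 and borr, a chromosomal passenger complex gene, by 0.60. Only borr among these 3 departed from the mean of pairs B, C and D, by 0.43 (SE 0.08, adjusted p = 0.00131). Pair B had 4 higher and 0 lower calls in this list, pair C 2 and 1, and pair D 4 and 0. With equal array medians the list had 3 higher calls and a median of 0.21, and without A2 replicate 1 it had 7 higher calls. Growth genes of the insulin and TOR pathway went both ways, with 2 of 14 higher and 4 lower. ImpL2, an insulin-binding antagonist, had a difference of -0.88 and S6k, the ribosomal S6 kinase, rose by 0.58.

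Structural cuticle protein genes had 6 of 38 tested members higher and 2 lower. In the same list pair B had 5 higher and 2 lower calls, pair C 2 and 1, and pair D 3 and 1. Cpr72Ea had 1931.3, 1812.6 and 2067.4 in A1, against 454.7, 581.4 and 548.4 in A2, a difference of 1.88 (SE 0.30, adjusted p = 2.67e-05). It exceeded the mean of the other pairs by 1.59 (SE 0.35, adjusted p = 0.00398). Cpr51A rose by 1.90, Cpr72Eb by 1.49 and Cpr65Ec by 1.17. Cpr51A and Cpr72Eb also departed from the mean of the other pairs, by 1.31 and 0.87. The count of higher calls in pair A was 6 under both other scalings. Among chitin genes, Gasp rose by 1.18, and the chitin deacetylase genes serp and verm had differences of -1.17 and -0.92. serp and verm differed from the mean of the other pairs by -0.54 (adjusted p = 0.0139) and -0.70 (adjusted p = 0.0134).

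Cytosolic ribosomal protein genes had 25 of 38 members lower and 0 higher, with a median of -0.19. This count changed with the processing. It was 10 with the replicate number as a block, and 8 to 18 with 1 array of pair A left out. It was 0 with equal array medians, where the list's median was -0.21, and 1 with quantile normalization, where the median was 0.00. The heat shock and chaperone genes had 4 of 14 lower as deposited, 0 and 1 under the other scalings and 2 with the block. No direction is given for either group. Of 69 mitochondrial ribosomal protein genes, 7 were higher and 1 lower, and the higher count was 3 with equal array medians. Of 56 oxidative phosphorylation genes 2 were higher and 2 lower.

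The patterning pathways were counted in turn. Of 15 Hedgehog pathway genes, 1 was called, the co-receptor gene ihog, at -0.46, and it differed from the mean of the other pairs by -0.34 (adjusted p = 0.00219). Of 21 Dpp genes, 2 rose and 1 fell, among them the signal transducer gene Mad, which rose by 0.61 and exceeded the mean of the other pairs by 0.38 (adjusted p = 0.0385). Of 12 tested genes in the Wingless list 1 rose and 1 fell, with wls, needed for Wingless secretion, at 0.47. That list held Arr2, Panx and mr, which are not members of the pathway, and lacked wg, arm and dsh. Its count therefore does not describe the pathway. Of 15 Notch pathway genes 1 rose and 1 fell. The larger was bib, big brain, with 3809.0, 4328.0 and 4280.6 in A1 and 11129.0, 11004.3 and 10964.3 in A2, a difference of -1.42 (adjusted p = 7.16e-10). The departure of bib from the mean of the other pairs did not pass the test. Of 12 genes of the Enhancer of split and Bearded families 3 rose and 1 fell, led by Brd at 0.87, and pair C had 0 higher and 4 lower. The EGFR list had 2 of 16 higher and 0 lower, led by the ubiquitin ligase gene Cbl at 0.91. Of 23 Hippo, Fat and Dachsous genes, 3 rose and 1 fell, and all 4 calls were lost in at least 5 of the alternatives. Of 8 planar cell polarity genes 0 rose and 2 fell, with inturned, labelled in, at -0.95. Of 24 vein genes 2 rose and 3 fell, of 27 pouch and hinge genes 1 rose and 2 fell, and of 17 notum genes 2 rose and 1 fell. All 5 vein calls and all 3 notum calls were lost in at least 1 alternative, and of the pouch and hinge calls drm, at -0.57, was kept in all. Of the calls in the other lists of this paragraph, ihog, Mad, wls, bib, Brd, E(spl)mdelta-HLH, Tom, Cbl and in were kept in all alternatives computed, and each of the rest was lost in at least 1.

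Detoxification genes were called in both directions. Of 24 glutathione S-transferase genes 3 rose and 4 fell, and of 31 cytochrome P450 genes 4 rose and 4 fell. GstO3 had 9894.8, 8796.3 and 7825.2 in A1, against 34724.6, 33199.4 and 33614.1 in A2, a difference of -1.94 (SE 0.09, adjusted p = 1.88e-16). Cyp310a1 rose by 2.06. For neither gene did the departure from the mean of the other pairs pass the test. The glutathione S-transferase list had 3 higher and 6 lower calls in pair B, 1 and 10 in pair C, and 2 and 8 in pair D. Of 23 Toll and Imd immunity genes 2 rose and 4 fell. SPE, which encodes the protease that cleaves Spätzle, had a difference of -1.25 and differed from the mean of the other pairs by -1.28 (adjusted p = 0.014).

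Of 21 ecdysone response genes 1 rose and 3 fell. Among the fallen was ImpE1, at -0.68 by its brightest probe set. Another ImpE1 probe set was called higher in A1, at 1.12, and in B1, C1 and D1, and a further one, at 0.39, was not called. Of 18 apoptosis and JNK genes 1 rose and 2 fell, with the TNF receptor gene grnd at -1.01. Of 28 Polycomb, trithorax and insulator genes 3 rose and 1 fell, the fallen one being Sce. Of 14 basement membrane genes 0 rose and 3 fell, with the multiplexin gene Mp at -0.87 by 1 probe set and -0.25, not called, by another, and of 15 integrin adhesion genes 1 rose and 2 fell. Of 29 proteasome genes 0 rose and 4 fell. Of 43 odorant, gustatory and ionotropic receptor genes 3 rose and 1 fell, and of 12 dosage compensation genes 1 rose, msl-3.

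**Figure D5:**
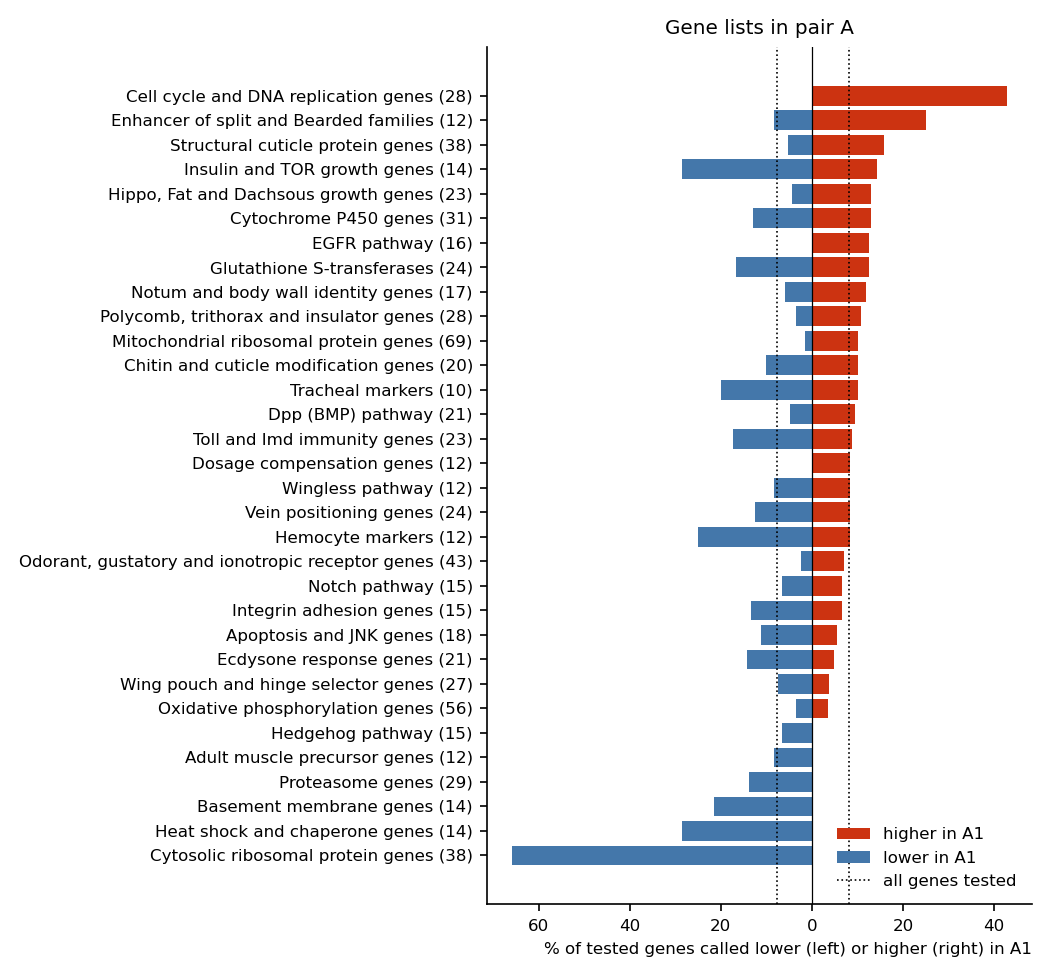
Share of the tested genes of each list called higher (red, right) or lower (blue, left) in A1 than in A2, for lists with at least 10 tested genes, whose number stands in brackets. Dotted lines mark the shares over all genes tested, 8.06% and 7.78%. The bar of the cytosolic ribosomal genes rests on the deposited scaling.

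Markers of other cells that a dissected disc can carry were counted too. Since each tube is a bulk sample, fewer cells of a type and less RNA per cell cannot be told apart. Of 12 tested hemocyte markers 1 rose and 3 fell, and their summed signal ran from 21328 to 23328 in A1 and from 21963 to 26718 in A2. The scavenger receptor gene crq had 953.0, 975.6 and 945.5 in A1, against 1995.8, 2072.6 and 2704.5 in A2, a difference of -1.22, and pairs B, C and D had differences of -1.56, -0.88 and -1.51. Each of the other 3 hemocyte calls was lost in at least 1 alternative. Of 10 tracheal markers 1 rose and 2 fell, and these are Gasp, serp and verm, which are also among the chitin genes above. Their summed signal was 128703 to 132783 in A1 and 138064 to 152620 in A2. Of the fat body, salivary gland, differentiated muscle and neuronal markers, 4, 4, 5 and 4 were tested and 0 were called. The summed signal of the fat body markers was 4198 to 5475 in A1 and 5694 to 6283 in A2, with no overlap, and all 4 had differences below 0. That of the salivary gland markers was 1379 to 2863 in A1 and 912 to 3508 in A2. It was 17673 to 18837 in A1 and 17924 to 19902 in A2 for muscle, and 4192 to 4719 in A1 and 3941 to 5869 in A2 for neuronal markers. Of 7 eye disc genes 1 rose and 0 fell, and 6 of the 7 had differences above 0. Their summed signal was 14307 to 15203 in A1 and 11627 to 12994 in A2, again with no overlap. The called one was eya at 0.91, which was lost without A1 replicate 2 or A2 replicate 2. Of 8 leg disc genes 2 rose and 1 fell, bab2 being the largest at -0.97. The part of any of these cell types in the differences of pair A was not tested.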

How the data were processed

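Values are microarray intensity signals as deposited by the authors, linear and 1 per probe set and array, made with MAS5 per the submitters' processing notes. Its version is not given in the sources used here. The trimmed mean between the 2nd and 98th percentiles was 2498.3 to 2498.5 on every array. Of 18952 probe sets, 183 controls were left out. Signals were taken to log2 with no pseudocount, and the brighter part of the probe sets was tested, those whose mean log2 over 36 arrays reached the median (259.7 as a signal). Symbols came from the platform annotation, which gave 1 symbol to 7867 of the tested probe sets, several to 235 and none to 1283. Release 6 plus ISO1 MT gave gene order, and older symbols through which gene list members could be matched. limma 3.58.1 in R 4.3.3 fitted 1 mean per line with an intensity trend (24 residual and 6.34 prior degrees of freedom), with two-sided tests adjusted over the 9385 probe sets. The number of arrays limits precision. The fit was tested on simulated data. Members and lists were chosen with earlier results of these data known. Named genes were the 12 highest and 12 lowest A1 minus A2 differences, the 12 highest and 12 lowest departures from the other pairs among probe sets particular to pair A, and list members with the largest called differences. Tried as alternatives were other scalings, filters, a pseudocount, no trend, fewer arrays, a replicate block and leaving out each array.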

Additional observations from a re-analysis of the deposited data

Results flagged for a closer look

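The 2 counts and 58 genes are given because the difference between A1 and A2 departed from the mean difference of pairs B, C and D when that departure was tested in limma. The genes were drawn only from those that met the naming rule. Others that departed, among them dome, kis and Ugt302K1, are not listed here. The counts were 523 probe sets over the whole table and 46 particular to pair A. Values below are pair A less that mean, on the log2 scale.

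Among genes particular to pair A, the departure was upward for Arc1 (2.64), CG12883 (1.74), Fancl (1.72), CG6330 (1.38), CG1648 (1.26), CG10559 (1.17), CG7179 (1.14), CG15784 (1.12), CG14683 (1.05), SelR (1.01), CG12868 (0.88), Aasdh (0.86) and mRpS22 (0.46). It was downward for CG31436 (-5.20), CG5639 (-1.15), CG2812 (-1.08), CG5727 (-1.07), CG8192 (-1.03), twz (-0.93), CG3663 (-0.91), CG2663 (-0.78), CG33978 (-0.72), wun2 (-0.72), Fdh (-0.69) and CG15743 (-0.66).

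Other genes that departed upward were BCAS2 (2.25), Cpr72Ea (1.59), Cpr51A (1.31) and Cpr72Eb (0.87), the ecdysone receptor gene EcR (1.00) and the hemocyte receptor gene NimC1 (0.83). Smaller ones were E(spl)mdelta-HLH (0.49), E(spl)m4-BFM (0.47), mRpS34 (0.43), borr (0.43), Brd (0.42), Mad (0.38) and ND-PDSW (0.30). Genes that departed downward were CG10809 (-2.10), Pgant2 (-1.64), SPE (-1.28), Sce (-1.11), verm (-0.70), hep (-0.60), serp (-0.54), Tep3 (-0.50), mirr (-0.45), in (-0.40), mio (-0.38) and ihog (-0.34). Genes of the ribosomal, chaperone and proteasome lists also departed downward, with RpL3 at -0.39, RpL41 at -0.32, Hsp27 at -0.32, RpS20 at -0.27, Gp93 at -0.27, Prosbeta4 at -0.26, RpL28 at -0.24 and Rpt5 at -0.22. With equal array medians and with quantile normalization, the call between A1 and A2 was lost for RpL3, RpL41, RpS20 and Hsp27. For RpL28, Gp93 and Rpt5 it was lost with equal array medians, and for Prosbeta4 it was kept under both. The genes hep, mirr and RpL3 have other tested probe sets. By these the departure was 0.01 and -0.36 for hep, neither past the test, -1.11 for mirr (adjusted p = 0.000598), and 0.15 and -0.02 for RpL3, neither past the test. For EcR, NimC1, E(spl)m4-BFM, ND-PDSW, hep, mirr and the genes RpL3, RpL28, RpL41, RpS20, Gp93, Hsp27 and Rpt5, the call between A1 and A2 itself was lost in at least 1 alternative.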

How the results depend on the processing

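Centring each array on its median moved most counts. It gave 729 probe sets called in pair A, 192 departing from the mean of the other pairs, 15 particular to pair A (all 15 among the 46), 1524 for A1 apart and 1922 for A2 apart. A filter at the 75th percentile gave 406 for A2 apart. Quantile normalization gave 42 particular probe sets, 36 of them among the 46. For the gene lists, whose scaling, block and left-out array alternatives were chosen after seeing the data, the following was found. Under centring, quantile normalization and the replicate block, lower calls numbered 0, 1 and 10 for ribosomal and 0, 1 and 2 for heat shock genes. Lower hemocyte calls numbered 1 under centring and 1 under quantile normalization. Under centring, cell cycle genes had 3 higher calls and mitochondrial ribosomal genes 3. The cause was not tested. Leaving out 1 array at a time gave 1013 to 1360 calls in pair A, 284 to 601 departures, 35 to 64 particular, 588 to 1068 for A1 apart and 190 to 776 for A2 apart. The lowest values for pair A, the departures, the particular probe sets and A2 apart came without A2 replicate 3, and that for A1 apart without A1 replicate 2. It gave 8 to 18 ribosomal, 7 to 11 cell cycle, 5 to 8 cuticle, 1 to 2 hemocyte, 1 to 4 heat shock and 6 to 8 mitochondrial ribosomal calls, with 8 for ribosomal genes without A1 replicate 2. Same-numbered arrays of A1 and A2 deviated together only weakly (r of 0.0114, 0.152 and 0.188), so the numbers were not taken as pairs. With the replicate block, 1386 probe sets were called in pair A, 461 departed, 54 were particular, and A1 and A2 stood apart at 950 and 711. Among particular probe sets the share higher in A1 was 54.3% as deposited, 46.7% under centring and 45.2% under quantile normalization. No call changed sign among the A1 minus A2 calls of 122 genes and the 24 departures that were recomputed. Other departures were not recomputed gene by gene. For these 122 genes, 1501 of 1786 recomputed A1 minus A2 calls were kept and 285 lost, and 68 genes kept the call throughout. The departures of the 24 genes named for them were kept in all 756. These genes were chosen for large departures among probe sets that had met the stricter requirement, which favours that result. The stricter requirement itself was lost more often, and was met in 7 of 31 alternatives for CG10559, 16 of 31 for CG8192 and 20 of 32 for twz.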
